A study of Mus musculus with 18 samples.

Results

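The collagen chain genes encode the polypeptides from which every collagen is assembled. They were taken as the rows of a gene count table whose mouse symbol is Col, a number, the letter a and a second number, and 44 of 55450 genes met that pattern. The table holds 18 poly(A) RNA libraries from 3 mouse cancer cell lines: 4T1, a mammary carcinoma line, MC38, a colon adenocarcinoma line, and LLC, the Lewis lung carcinoma line, all given the genotype W.T in the labels. Each line had 3 libraries of DMSO-treated control cells, DMSO being the solvent. It had 3 more of cells treated with Sildenafil Citrate at 100 µM, the salt of a drug that blocks PDE5, a phosphodiesterase that breaks down cGMP. Treatment lasted 24 h in 4T1 and MC38 and 48 h in LLC. 4T1 was grown in RPMI medium and the other lines in DMEM, so that line, medium and, for LLC, time cannot be told apart in any comparison between lines. Nothing in the labels says that the libraries within a group are separate cultures. Their spread, and every p-value built on it, may therefore be technical.

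Collagens are extracellular proteins wound from chains into a triple helix. Chains pair by type: Col1a1 joins Col1a2 in type I fibrils, Col3a1 forms type III fibrils on its own, type V chains control fibril diameter, Col4a1 joins Col4a2 in the sheet-like network of basement membranes, and Col6a1 needs Col6a2 and a longer partner to form beaded microfilaments. Before export the chains are hydroxylated and glycosylated in the endoplasmic reticulum, folded with dedicated chaperones and carried out in enlarged transport vesicles. In tumours much of the collagen comes from fibroblasts, but carcinoma cells make collagens of their own, above all those of the basement membrane.

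Several of these chains sit next to each other in the genome, and the pairs matter below because their levels were compared within each library. Col4a1 (chr8:11198423-11312826, minus strand, GRCm38) and Col4a2 (chr8:11312805-11449287, plus strand) are transcribed away from each other, with annotated start sites 21 bases apart and gene bodies that overlap by 22 bases. Col4a5 (chrX:141475385-141689234, plus strand) and Col4a6 (chrX:141165403-141474076, minus strand) are arranged the same way with start sites 1309 bases apart. Col3a1 (chr1:45311538-45349706, plus strand) and Col5a2 (chr1:45374321-45503282, minus strand) face each other with 24614 bases between their bodies, and Col6a1 and Col6a2 lie on the same strand of chromosome 10 with 85161 bases between them. The start windows of the Col4a1 and Col4a2 pair, of the Col4a5 and Col4a6 pair and of Col3a1 are shown here from RefSeq (GRCm38.p6), each running from 250 bases before the gene's start to 50 after it, 5′ to 3′ on the gene's own strand. In the first pair, capitals mark the 78 bases that both windows share, read on opposite strands. In the other windows, capitals mark matches to the motifs described after them.
Col4a1: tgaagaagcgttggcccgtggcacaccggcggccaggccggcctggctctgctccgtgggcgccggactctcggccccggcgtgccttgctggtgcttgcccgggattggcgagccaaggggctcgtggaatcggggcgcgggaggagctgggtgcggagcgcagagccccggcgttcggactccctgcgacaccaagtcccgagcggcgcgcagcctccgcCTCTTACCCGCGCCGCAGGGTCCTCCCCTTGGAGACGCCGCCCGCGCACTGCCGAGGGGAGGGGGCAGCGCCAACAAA
Col4a2: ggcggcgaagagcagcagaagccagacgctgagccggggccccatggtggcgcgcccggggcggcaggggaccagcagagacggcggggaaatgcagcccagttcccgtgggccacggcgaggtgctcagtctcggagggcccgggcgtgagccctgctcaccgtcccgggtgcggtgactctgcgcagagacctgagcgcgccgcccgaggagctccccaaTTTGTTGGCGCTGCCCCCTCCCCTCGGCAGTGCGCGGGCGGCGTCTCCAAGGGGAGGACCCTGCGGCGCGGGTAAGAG
Col4a5: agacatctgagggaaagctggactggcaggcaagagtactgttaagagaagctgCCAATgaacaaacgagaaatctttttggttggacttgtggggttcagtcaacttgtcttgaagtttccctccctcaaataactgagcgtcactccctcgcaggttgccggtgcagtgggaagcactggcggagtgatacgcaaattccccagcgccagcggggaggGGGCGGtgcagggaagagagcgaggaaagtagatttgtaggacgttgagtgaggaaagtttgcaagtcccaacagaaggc
Col4a6: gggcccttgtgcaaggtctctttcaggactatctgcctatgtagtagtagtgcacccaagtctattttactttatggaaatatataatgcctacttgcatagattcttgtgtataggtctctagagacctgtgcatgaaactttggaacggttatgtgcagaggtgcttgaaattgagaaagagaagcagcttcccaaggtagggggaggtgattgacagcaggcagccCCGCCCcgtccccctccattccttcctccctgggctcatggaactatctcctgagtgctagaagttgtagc
Col3a1: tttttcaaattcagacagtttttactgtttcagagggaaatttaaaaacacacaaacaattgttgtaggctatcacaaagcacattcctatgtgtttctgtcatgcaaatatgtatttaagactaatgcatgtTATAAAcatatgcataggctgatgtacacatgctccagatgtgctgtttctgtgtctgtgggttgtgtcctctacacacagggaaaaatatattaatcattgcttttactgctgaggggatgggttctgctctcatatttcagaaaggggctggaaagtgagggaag
These windows lie at chr8:11312777-11313076 (minus strand), chr8:11312555-11312854 (plus), chrX:141475169-141475468 (plus), chrX:141474027-141474326 (minus) and chr1:45311288-45311587 (plus).

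The Col4a1 and Col4a2 windows are thus in part the same DNA. The windows were searched on both strands for 4 motifs. The first was the CCAAT box, whose letters are its name. The second was the GC box, written GGGCGG. The TATA box was searched as TATAAA. The sterol regulatory element was searched as TCACNCCAC. Of all 32817 RefSeq start windows of this length, 37.4% held the CCAAT box, 35.6% the GC box, 13.6% the TATA box and 1.24% the sterol element. Windows were found for 18 of the 23 collagen genes that reached 1 CPM (count per 1000000 counts) in any group, 20 windows in all, and 40.0% of these held the CCAAT box, 70.0% the GC box, 10.0% the TATA box and 5.00% the sterol element. Col3a1 held the TATA box and none of the others, Col4a5 held the CCAAT and GC boxes, and Col4a6 held the GC box. The Col4a1 and Col4a2 windows each held the CCAAT and GC boxes. A match describes letters in this window only.

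Library totals ran from 26348654 to 61600646 counts, and each library had counts in 18041 to 19633 genes. The third LLC control library differed most from its fellows, with a chi-square per degree of freedom of 53.0 and 44.6 across genes against the other LLC controls, where all other pairs of the same group gave 2.87 to 15.5. A predicted noncoding gene, Gm26917, took an uneven share of reads, at means of 159 CPM in control and 266 in sildenafil 4T1 libraries, 11097 and 5451 in MC38, and 20289 and 8974 in LLC. Of 10 epithelial marker genes, 9 reached 1 CPM in 4T1, 4 in MC38 and 1 in LLC, where Krt8 stood at 215 ± 13.5 in control cells and 7 others had no count. Epithelial markers therefore covered the labelled carcinoma identity in 4T1, in part in MC38 and hardly in LLC.

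Levels are given on 2 scales, both computed from the deposited estimated counts. CPM, scaled by TMM factors within a line, compare 1 gene across the libraries of that line, and TPM, which divide each count by the gene's exon length before scaling to 1000000, compare genes with each other. Means are given ± SD with n = 3 libraries. A chain was taken as expressed in a line when its control or sildenafil mean reached 1 CPM.

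Of the 44 chains, 40 had a count in at least 1 library and 23 reached 1 CPM in some line. No count was found for Col19a1, Col26a1, Col6a6 and Col9a1. Expressed chains numbered 13 in 4T1, 20 in MC38 and 12 in LLC, out of 21, 21 and 16 that passed the filter on low counts. The chains nearest the limit, by their sildenafil means, were Col27a1 in 4T1 (1.08 CPM, just inside) and Col24a1 in MC38 (0.976 CPM, just outside). In 4T1, Col27a1, Col11a2, Col2a1 and Col5a3 reached 1 CPM only with sildenafil, with control means of 0.948, 0.845, 0.829 and 0.525 CPM. Expressed in all 3 lines were 7 chains: Col4a1 and Col4a2 of the basement membrane, Col5a3 of type V fibrils, Col6a1, the anchoring fibril chain Col7a1, the fibril-associated chain Col16a1 and Col18a1, the source of endostatin. MC38 alone expressed 6 (Col1a1, Col1a2, Col6a3, Col9a3, Col12a1 and Col20a1), 4T1 alone Col27a1 and LLC alone Col24a1. Col11a2, Col4a5, Col5a1 and Col8a1 were expressed in 4T1 and MC38, Col3a1, Col5a2 and Col6a2 in MC38 and LLC, and Col2a1 in 4T1 and LLC. None of the 4 transmembrane collagens reached 1 CPM in any line.

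**Figure D1:**
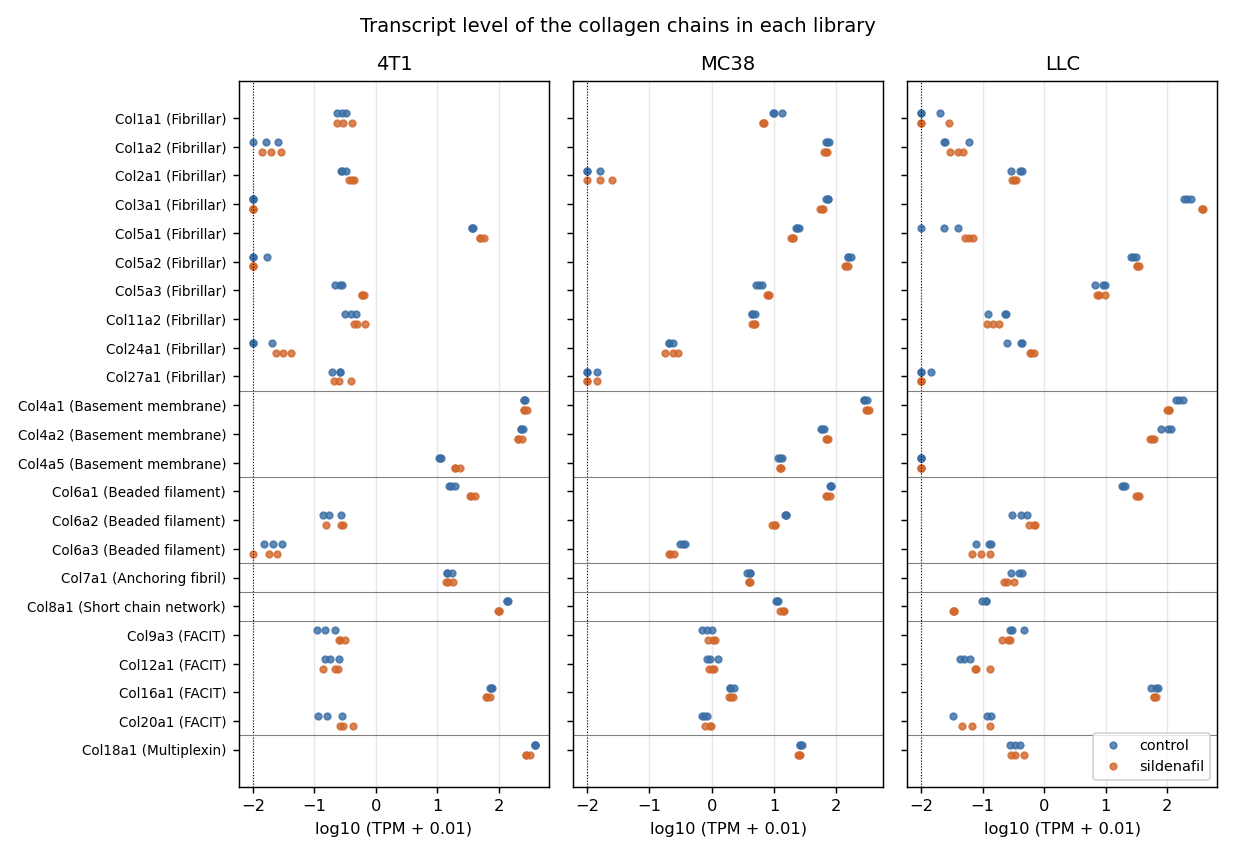
Transcript level of the 23 expressed chains in each library, as log10 of TPM plus 0.01, with 1 point per library, control in blue and sildenafil in orange, and the dotted line at a TPM of 0. Col4a1 and Col4a2 are high in every line, Col3a1 lies on the dotted line in all 4T1 libraries and Col4a5 on it in all LLC libraries.

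In control 4T1 cells the collagen transcripts were led by Col18a1, at 384, 385 and 383 TPM, 32.8% of all collagen TPM. Col4a1 followed at 259 ± 3.52 TPM (22.1%), then Col4a2 at 234 ± 6.49 (20.0%), Col8a1, a short chain that builds hexagonal lattices, at 137 ± 1.55 (11.7%) and Col16a1 at 73.8 ± 3.97 (6.30%). No neighbours in this order overlapped between libraries. Fibrillar chains made up 3.25% ± 0.0662 of collagen TPM and basement membrane chains 43.1% ± 0.183.

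In control MC38 cells Col4a1 led at 280.3, 282 and 311 TPM, 34.0% of collagen TPM. Col5a2 stood at 161 ± 7.49 TPM (18.8%) and Col6a1 at 81.2 ± 2.73 (9.48%). Col1a2, at 71.8 ± 4.25 (8.38%), and Col3a1, at 71.5 ± 2.62 (8.35%), overlapped between libraries. MC38 had the widest set, with fibrillar chains at 40.8% ± 0.15, basement membrane chains at 42.4% ± 0.516 and beaded filament chains at 11.3% ± 0.336 of collagen TPM.

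In control LLC cells Col3a1 led at 212, 242 and 189 TPM, 36.0% of collagen TPM. Col4a1 followed at 160.0 ± 21.9 TPM (26.9%), Col4a2 at 99.0 ± 18.9 (16.6%), Col16a1 at 63.8 ± 8.04 (10.7%) and Col5a2 at 28.0 ± 2.60 (4.69%). Summed collagen TPM was spread more widely in the LLC controls than in the controls of the other lines. The third LLC control library was lowest for Col3a1, Col4a1 and Col4a2. Among these 5 chains, no neighbours in the order of LLC overlapped between the 3 control libraries. Summed over all chains, control TPM was 1170.4 ± 18.5 in 4T1, 857 ± 43.3 in MC38 and 596 ± 80.4 in LLC. The order of 4T1 and MC38 depended on the scale. As a share of all counts, collagens held 0.267%, 0.262% and 0.259% in the 4T1 controls. They held 0.378%, 0.390% and 0.383% in the MC38 controls and 0.240%, 0.253% and 0.233% in the LLC controls.

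Partner chains did not always come together. In 4T1, Col5a1 stood at 99.9 ± 2.58 CPM in control cells while its partner Col5a2 was at 0.00696 ± 0.0121, and in LLC the reverse held, with Col5a2 at 136 ± 2.45 and Col5a1 at 0.0591 ± 0.0564. Col6a1 was expressed in 4T1 at 23.8 ± 2.44 CPM and in LLC at 42.9 ± 2.46, against 0.493 ± 0.177 and 1.67 ± 0.291 for Col6a2. In MC38, Col1a2 stood at 495 ± 9.04 CPM and Col1a1 at 40.0 ± 5.12, a TPM ratio of Col1a1 to Col1a2 of 0.153. These are levels of RNA, and no protein was measured.

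The control cells were then compared between lines with edgeR's quasi-likelihood test over all 18 libraries, with Benjamini-Hochberg adjustment over all genes. Between control MC38 and 4T1 cells, 20 of 20 chains with a control mean of 1 CPM or more in either line had an adjusted p under 0.05, 15 of them higher in MC38, against 88.6% of all genes chosen in the same way. For these comparisons all libraries were scaled together and the sildenafil means were not used, so chains whose control means were below 1 CPM in both lines were left out (Col2a1 and Col27a1 here, Col11a2 and Col27a1 between LLC and 4T1). A 4-fold or larger difference was found for 15 of the 20, against 21.0% of genes. Between LLC and MC38 controls, 22 of 22 chains were called, 6 of them higher in LLC, against 84.2% of genes, and 15 differed 4-fold or more, against 16.6%. Between LLC and 4T1 controls, 14 of 15 were called, 8 higher in LLC, against 89.7%, and 9 differed 4-fold or more, against 24.6%. The exception was Col4a1, which stood at 592 CPM in LLC and 593 CPM in 4T1 on that joint scale (log2 difference -0.00409, adjusted p = 0.93). Col24a1 was higher in LLC than in MC38 by 0.54 ± 0.237 (SE) on the log2 scale, and that call was lost in 10 alternative settings, among them without MC38 control 1 or 3, LLC control 1 or 2, MC38 sildenafil 3 or any 1 of the LLC sildenafil libraries (adjusted p 0.0536 to 0.163).

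Some chains had 0 or few counts in the controls of a line. Col3a1 had 0 counts in all 6 4T1 libraries, so that its level was at least 18549-fold higher in control MC38 cells and at least 50749-fold higher in control LLC cells, taking 3 counts over the group as the limit that a count of 0 allows. Col4a5, a chain of the kidney and skin basement membrane, had 0 counts in all 6 LLC libraries and was at least 1348-fold lower there than in MC38 and at least 672-fold lower than in 4T1. Col5a2 had 1 count over the 4T1 controls, and its share of counts was 122419 times higher in MC38 (exact 95% interval 21971 to 4835372, counting error only). Col18a1, which has counts in every line, was lower in LLC than in 4T1 by a log2 difference of -9.49 ± 0.0941 (SE), and Col8a1 by -9.72 ± 0.0807 (SE). Col1a2 was higher in MC38 than in 4T1 by 14.05 ± 0.133 (SE) and lower in LLC than in MC38, at -11.64 ± 0.119 (SE). The controls of each line enter 2 of these 3 comparisons, so the comparisons are not independent.

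The response to sildenafil was tested within each line, again with edgeR and over all genes. In 4T1, 4 of 13 expressed chains rose, 4 fell and 5 did not pass the test. Of the 13, Col2a1, Col5a3, Col11a2 and Col27a1 were counted through their sildenafil means alone, and of these Col5a3 was among the rises. With a floor of 1 CPM on average over both groups, 3 of 10 rose and 4 fell. With a floor of 5 CPM, 3 of 9 rose and 4 fell. Among all genes at 1 CPM or more in 4T1, 73.2% were called, 35.9% up and 37.3% down. In MC38, 4 of 20 chains rose, 7 fell and 9 did not pass, against 41.9% of genes called, 21.6% up and 20.3% down. In LLC, 5 of 12 rose, 2 fell and 5 did not pass, against 29.7% of genes, 16.7% up and 13.0% down. Control and sildenafil libraries did not overlap for 9 chains in 4T1, 11 in MC38 and 7 in LLC, where 76.8%, 53.1% and 46.4% of all genes did not overlap. The median log2 fold change of the expressed chains was 0.16 in 4T1, 0.03 in MC38 and 0.16 in LLC, beside medians over all genes of -0.0069, 0.0035 and 0.0043. The 4T1 median is the value of Col27a1. It includes the chains that entered only through their higher sildenafil means, so it cannot show a direction of the chains. Col4a2 and Col6a1, but no other chain, were called in all 3 lines, and neither went the same way in all of them. When Gm26917 entered the fit as a covariate, which shared 0.967 of its variance with treatment in 4T1, 0.850 in MC38 and 0.464 in LLC, 0 of the 4 rises in 4T1, 2 of the 4 rises in MC38 and 2 of the 7 falls in MC38 remained called. The fall of Col8a1 in 4T1 was lost there as well (log2 fold change -0.14, adjusted p = 0.658), while Col7a1 was called lower (-1.09, adjusted p = 0.0186), so that falls in 4T1 again numbered 4. In MC38 the calls lost were the rises of Col4a1 and Col8a1 and the falls of Col1a1, Col5a1, Col5a2, Col6a1 and Col6a3. In LLC every call stayed, and Col5a3 and Col16a1 were called higher in addition (adjusted p = 0.0143 and 0.0263), which made 7 rises. In bulk RNA, a change in the number of cells of a kind and a change in RNA per cell cannot be told apart.

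**Figure D2:**
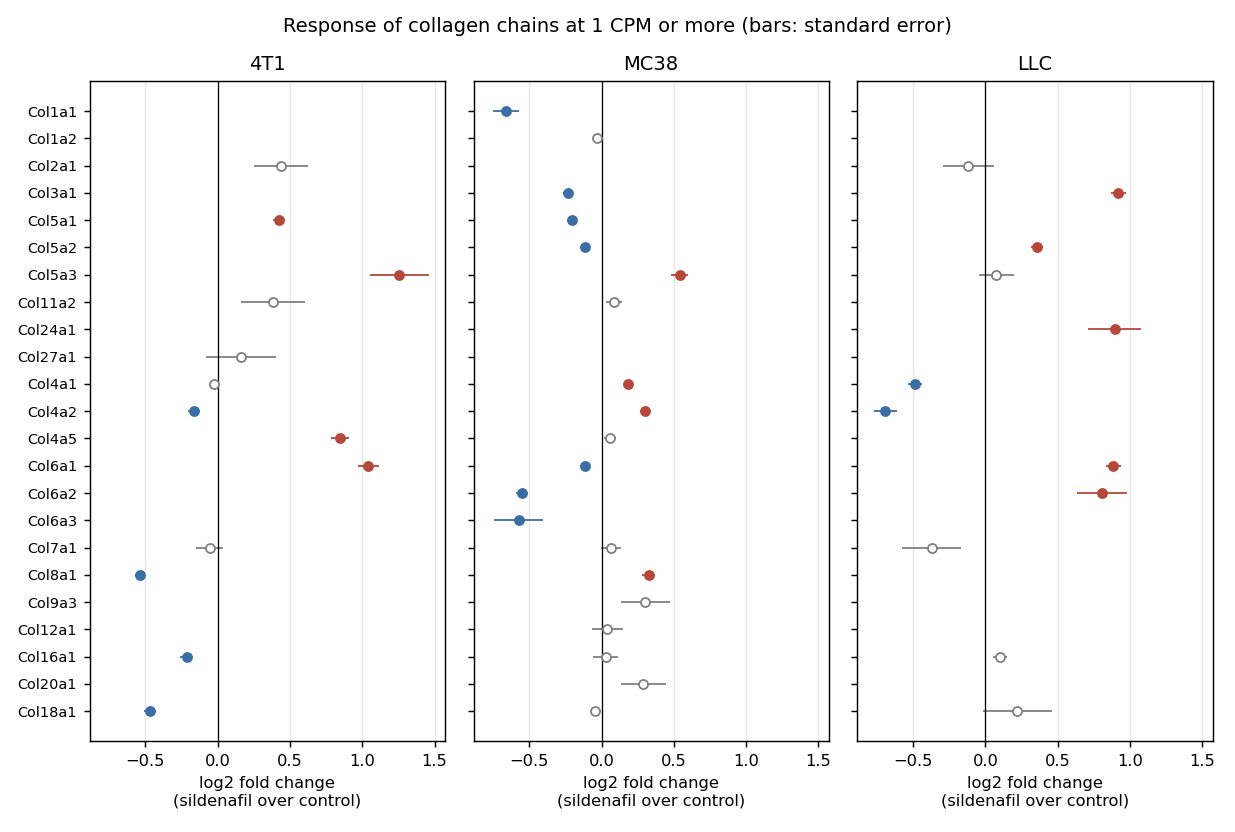
Log2 fold change of sildenafil over control for each expressed chain in each line, with standard error bars, filled red where the chain rose, filled blue where it fell and open where it did not pass an adjusted p of 0.05. Col6a1 rises in 4T1 and LLC and falls slightly in MC38, while Col4a2 rises in MC38 and falls in 4T1 and LLC.

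Of the expressed fibrillar chains, 3 of 5 rose in LLC and none fell, beside 16.7% of all genes that rose there. In MC38 1 of 7 rose and 4 fell, beside 21.6% and 20.3% of all genes. In 4T1 2 of 5 rose and none fell, beside 35.9% and 37.3%, a share of rises near that of all genes. Of those 5, only Col5a1 reached 1 CPM in control 4T1 cells. Col3a1, the chain of type III fibrils, stood at 1051, 1087 and 1048 CPM in the control libraries and 2010.0, 2004 and 2012 CPM in the sildenafil libraries of LLC. All 3 LLC sildenafil libraries were close to each other and far above the controls (log2 fold change 0.92 ± 0.0507 (SE), adjusted p = 5e-06). In MC38 the same chain stood at 399.5, 396 and 373 CPM in the control libraries and 333, 332 and 328 CPM in the sildenafil libraries. The MC38 sildenafil libraries all lay below the controls (log2 fold change -0.23 ± 0.0306 (SE), adjusted p = 2.36e-05).

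Col5a2, a type V chain, gave 134, 135 and 138 CPM in the control libraries and 169, 175 and 178 CPM in the sildenafil libraries of LLC. Every LLC sildenafil library was higher than every control (log2 fold change 0.36 ± 0.0429 (SE), adjusted p = 0.000397). In MC38, Col5a2 gave 842, 881 and 846 CPM in the control libraries and 804, 798 and 771 CPM in the sildenafil libraries. It fell there without overlap (log2 fold change -0.11 ± 0.0295 (SE), adjusted p = 0.00619), and that call was lost without the second control library, at an adjusted p of 0.0528. Col5a1 gave 103, 98.1 and 98.8 CPM in the control libraries and 131, 129 and 143 CPM in the sildenafil libraries of 4T1. It rose in 4T1 with no overlap (log2 fold change 0.43 ± 0.0409 (SE), adjusted p = 6.62e-07). In MC38 it gave 109, 112 and 113 CPM in the control libraries and 95.1, 98.5 and 96.7 CPM in the sildenafil libraries and fell (log2 fold change -0.20 ± 0.031 (SE), adjusted p = 9.39e-05).

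Col5a3, another type V chain, rose in 4T1 from a low level. It gave 0.439, 0.594 and 0.542 CPM in the control libraries and 1.24, 1.24 and 1.30 CPM in the sildenafil libraries (log2 fold change 1.26 ± 0.203 (SE), adjusted p = 9.55e-05) and so reached 1 CPM only with sildenafil. In MC38 it rose from 19.6, 22.7 and 22.9 to 30.9, 32.4 and 31.5 CPM, with no overlap (log2 fold change 0.54 ± 0.0576 (SE), adjusted p = 3.06e-06). In LLC it gave 31.1, 29.8 and 26.0 CPM without drug and 36.4, 27.2 and 28.1 CPM in sildenafil libraries, which overlapped (log2 fold change 0.08, adjusted p = 0.679).

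The type I chains were expressed in MC38 only, and they went apart. Col1a1 gave 35.7, 38.6 and 45.6 CPM in the control libraries and 24.2, 26.1 and 25.5 CPM in the sildenafil libraries and fell, with every sildenafil library below every control (log2 fold change -0.66 ± 0.0887 (SE), adjusted p = 0.000619). Col1a2 gave 485, 503 and 495 CPM in the control libraries and 483, 489 and 481 CPM in the sildenafil libraries, which overlapped (log2 fold change -0.03, adjusted p = 0.417). The TPM ratio of Col1a1 to Col1a2 moved from 0.153 ± 0.0188 in control to 0.0989 ± 0.00353 in sildenafil libraries, without overlap. An exact permutation test of 3 against 3 libraries gave p = 0.1, two-sided, the smallest it can give. Col24a1, a fibrillar chain of bone and cornea, rose in LLC from 1.59, 1.50 and 1.04 to 2.46, 2.49 and 2.69 CPM (log2 fold change 0.89 ± 0.185 (SE), adjusted p = 0.00687). Col2a1 and Col11a2, chains of cartilage, and Col27a1 did not pass the test where they were expressed, with log2 fold changes from -0.12 to 0.44. Col2a1 in 4T1 came nearest (adjusted p = 0.0547), with libraries that did not overlap.

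The paired basement membrane chains Col4a1 and Col4a2 both fell in LLC and both rose in MC38, where the third expressed chain of that class, Col4a5, did not pass the test. Col4a2 gave 347, 348 and 292 CPM in the control libraries and 221, 194 and 195 CPM in the sildenafil libraries of LLC, with no overlap (log2 fold change -0.69 ± 0.0799 (SE), adjusted p = 0.000505). Col4a1 gave 593, 624 and 589 CPM in the control libraries and 439, 424 and 425 CPM in the sildenafil libraries of LLC (log2 fold change -0.49 ± 0.0476 (SE), adjusted p = 0.00013). The third LLC control was the lowest control for both chains, and without it the log2 fold changes were -0.77 for Col4a2 and -0.50 for Col4a1.

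In MC38, Col4a2 gave 211, 226 and 218 CPM in the control libraries and 268, 273 and 266 CPM in the sildenafil libraries (log2 fold change 0.30 ± 0.0311 (SE), adjusted p = 2.41e-06). Col4a1 gave 1167, 1237 and 1208 CPM in the control libraries and 1382, 1388 and 1329.8 CPM in the sildenafil libraries (log2 fold change 0.18 ± 0.0305 (SE), adjusted p = 0.000221). Neither chain's libraries overlapped, and the rise was the larger for Col4a2. In 4T1, Col4a2 gave 508, 496 and 486 CPM in the control libraries and 427, 428 and 478 CPM in the sildenafil libraries and fell slightly (log2 fold change -0.16 ± 0.0414 (SE), adjusted p = 0.00385). That call was lost when libraries were scaled by their totals alone (log2 fold change -0.09, adjusted p = 0.1). Col4a1 gave 624, 624 and 613 CPM in the control libraries and 589, 590.5 and 648 CPM in the sildenafil libraries in 4T1, which overlapped through the third sildenafil library (log2 fold change -0.03, adjusted p = 0.552), and without that library it was called lower at -0.07 (adjusted p = 0.00632).

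The TPM ratio of Col4a1 to Col4a2, 2 chains whose start windows share 78 bases, differed between the lines and moved a little with treatment. It went from 1.11 ± 0.0164 in control to 1.22 ± 0.012 in sildenafil libraries of 4T1 and from 4.89 ± 0.0366 in control to 4.51 ± 0.0666 in sildenafil libraries of MC38, in both cases without overlap (exact permutation p = 0.1, two-sided). In LLC it went from 1.63 ± 0.139 in control to 1.88 ± 0.101 in sildenafil libraries, with overlap (exact permutation p = 0.2). Antisense genes overlap both chains, and the strand setting of the counting is not given in the sources used here.

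Col4a5 gave 24.6, 22.8 and 24.2 CPM in the control libraries and 40.1, 41.1 and 47.6 CPM in the sildenafil libraries of 4T1 and rose there without overlap (log2 fold change 0.84 ± 0.0629 (SE), adjusted p = 1.03e-07). Its head-to-head neighbour Col4a6 had group means below 1 CPM in 4T1, giving 0.334, 0.575 and 0.542 CPM without drug and 0.606, 0.742 and 1.06 CPM in sildenafil libraries (log2 fold change 0.70 ± 0.288 (SE), adjusted p = 0.0459). The TPM ratio of Col4a5 to Col4a6 stood at 62.5 ± 21.8 in control and 65.9 ± 12.7 in sildenafil 4T1 libraries, which overlapped. In MC38, Col4a5 averaged 47.0 ± 0.865 CPM without and 48.9 ± 2.31 CPM with sildenafil (log2 fold change 0.06, adjusted p = 0.327).

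Of the expressed beaded filament chains, 2 of 2 rose in LLC, beside 16.7% of all genes at 1 CPM or more. In 4T1 the only 1 expressed, Col6a1, rose, beside 35.9% of genes. In MC38 3 of 3 fell, beside 20.3% of genes. Col6a1 gave 26.4, 21.6 and 23.3 CPM in the control libraries and 47.7, 46.3 and 53.1 CPM in the sildenafil libraries of 4T1 (log2 fold change 1.04 ± 0.0734 (SE), adjusted p = 2.65e-07). In LLC it gave 42.7, 40.5 and 45.4 CPM in the control libraries and 80.3, 77.8 and 79.6 CPM in the sildenafil libraries (log2 fold change 0.88 ± 0.0532 (SE), adjusted p = 6.78e-06). In both lines the sildenafil libraries lay far above the controls. In MC38, Col6a1 gave 199.9, 202 and 190.3 CPM in the control libraries and 189, 184 and 174 CPM in the sildenafil libraries, with the sildenafil libraries just below the controls (log2 fold change -0.11 ± 0.0354 (SE), adjusted p = 0.0204). The MC38 call was lost without control library 1 or 2 or sildenafil library 2 or 3 (adjusted p 0.0566 to 0.0953), and with library totals alone (adjusted p = 0.063). It was also lost in 1 fit of all 18 libraries and with Gm26917 as a covariate.

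Col6a2, the partner of Col6a1, rose in LLC from 1.69, 1.95 and 1.37 to 3.18, 2.59 and 2.93 CPM (log2 fold change 0.80 ± 0.173 (SE), adjusted p = 0.00826). In MC38 it gave 71.6, 72.7 and 67.6 CPM in the control libraries and 48.2, 47.7 and 48.7 CPM in the sildenafil libraries, the clearest fall of the beaded filament chains there (log2 fold change -0.55 ± 0.0386 (SE), adjusted p = 3.81e-08). Col6a3 fell in MC38 from 2.22, 2.08 and 2.24 to 1.29, 1.74 and 1.39 CPM (log2 fold change -0.57 ± 0.169 (SE), adjusted p = 0.0144). That call was lost without the first sildenafil library (adjusted p = 0.0613) and under DESeq2 (adjusted p = 0.0586). It was also lost in 1 fit of all 18 libraries and with Gm26917 as a covariate. The TPM ratio of Col6a1 to Col6a2 in MC38 moved from 5.31 ± 0.0421 in control to 7.20 ± 0.36 in sildenafil libraries, without overlap (exact permutation p = 0.1, two-sided).

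**Figure D3:**
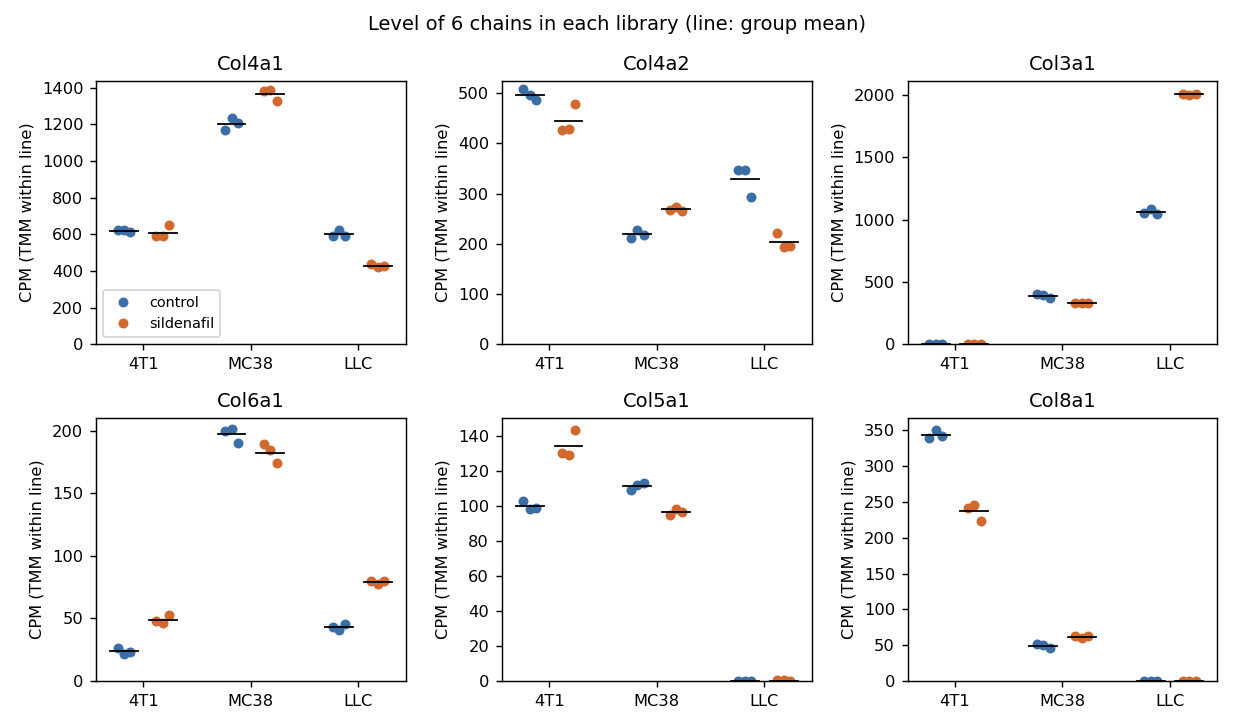
CPM, scaled within each line, of 6 chains in every library, control in blue and sildenafil in orange, with a line at each group mean. Col3a1 in LLC goes from about 1062 to 2009 CPM, and Col8a1 falls in 4T1 and rises in MC38.

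The remaining chains changed mainly in 4T1. Col18a1, whose end fragment endostatin is known as an inhibitor of vessel growth, gave 858, 873 and 865 CPM in the control libraries and 605, 596 and 673 CPM in the sildenafil libraries of 4T1 and fell without overlap (log2 fold change -0.47 ± 0.041 (SE), adjusted p = 3.07e-07). In MC38 it gave 104, 109 and 102 CPM without drug and 102, 108 and 96.5 CPM in sildenafil libraries (log2 fold change -0.04, adjusted p = 0.448), and in LLC it gave 0.932, 1.27 and 1.30 CPM without drug and 1.06, 1.28 and 1.73 CPM in sildenafil libraries (log2 fold change 0.22, adjusted p = 0.515). Neither of these passed the test. The Col18a1 gene overlaps Slc19a1 on the other strand by 8825 bases.

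Col8a1 gave 339, 350.1 and 342 CPM in the control libraries and 242, 246 and 223 CPM in the sildenafil libraries of 4T1 and fell (log2 fold change -0.54 ± 0.0359 (SE), adjusted p = 1.99e-08). In MC38 it gave 51.2, 50.2 and 46.2 CPM in the control libraries and 62.1, 60.6 and 62.2 CPM in the sildenafil libraries and rose (log2 fold change 0.33 ± 0.0426 (SE), adjusted p = 2.38e-05). Neither line's groups overlapped, but both calls were lost with Gm26917 as a covariate. LLC held 0.392 ± 0.0571 CPM in control cells. Col16a1 fell in 4T1 from 168, 159 and 153 to 135, 131 and 147 CPM (log2 fold change -0.21 ± 0.0459 (SE), adjusted p = 0.00123). It did not pass the test in MC38 (log2 fold change 0.03, adjusted p = 0.839) or LLC (0.10, adjusted p = 0.155). Col7a1, which anchors the skin's basement membrane, passed in no line, with log2 fold changes of -0.06 in 4T1, 0.07 in MC38 and -0.37 in LLC. The fibril-associated chain Col12a1 gave 7.93, 7.49 and 10.1 CPM without drug and 8.26, 8.41 and 9.51 CPM in sildenafil MC38 libraries, which overlapped (log2 fold change 0.04, adjusted p = 0.804). Col9a3 and Col20a1 were low in MC38 and not called, at log2 fold changes of 0.30 and 0.29.

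The total of collagen transcripts was taken on both scales. Summed collagen TPM went from 1170.4 ± 18.5 to 1061 ± 81.7 in 4T1, from 857 ± 43.3 to 844 ± 43.9 in MC38 and from 596 ± 80.4 to 678 ± 22.7 in LLC, with overlapping libraries in all 3 lines. As a share of all counts, which weighs long chains more, the collagens held 0.240%, 0.253% and 0.233% in the LLC control libraries and 0.321%, 0.314% and 0.318% in the LLC sildenafil libraries, which did not overlap. In 4T1 the share was 0.267%, 0.262% and 0.259% in control and 0.231%, 0.231% and 0.256% in sildenafil libraries, lower without overlap. In MC38 it was 0.378%, 0.390% and 0.383% in control and 0.399%, 0.395% and 0.387% in sildenafil libraries, which overlapped. Within the collagen TPM of LLC the share of fibrillar chains went from 42.3% ± 0.702 to 61.7% ± 0.765 and that of basement membrane chains from 43.4% ± 0.972 to 23.9% ± 0.603. MC38 moved the other way, with fibrillar chains going from 40.8% ± 0.15 to 36.8% ± 0.255 and basement membrane chains from 42.4% ± 0.516 to 47.7% ± 0.132. In 4T1 the Col18a1 class went from 32.8% ± 0.512 to 27.1% ± 0.386, and basement membrane chains from 43.1% ± 0.183 to 47.3% ± 0.421. Col4a1 and Col4a2 were not called higher there, while Col4a5, of the same class, was, going from 11.1 ± 0.51 to 20.7 ± 2.46 TPM. Shares add to 100, so a fall in 1 class raises the others.

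**Figure D4:**
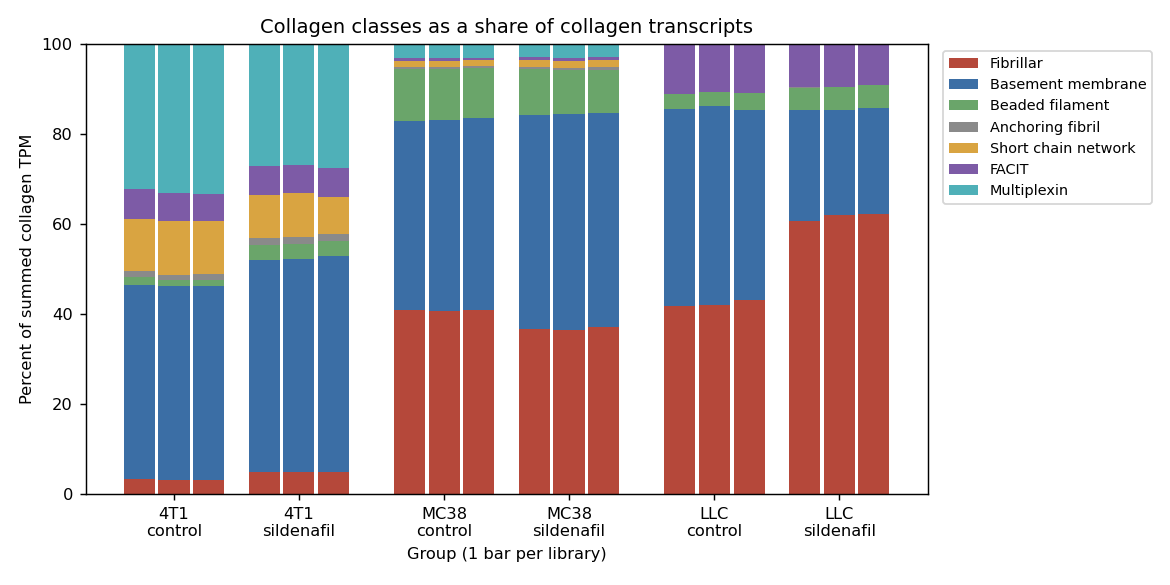
Share of each collagen class in the summed collagen TPM, in percent, with 1 stacked bar per library. Libraries of a group are nearly alike, and in LLC the fibrillar share is higher and the basement membrane share lower in all 3 sildenafil bars.

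Whether a chain responded differently in different lines was tested as the difference of log2 fold changes over all 18 libraries. The MC38 and 4T1 responses, both at 24 h, differed for 9 of 11 chains expressed in both lines, against 48.3% of all genes. The response of Col6a1 was lower in MC38 by -1.17 ± 0.0846 (SE, adjusted p = 9.3e-10), that of Col4a5 by -0.80 ± 0.0844 (SE, adjusted p = 4.95e-07) and that of Col5a1 by -0.65 ± 0.0674 (SE, adjusted p = 9.59e-08). Col8a1 was higher in MC38 by 0.85 ± 0.0594 (SE, adjusted p = 3.03e-10), Col4a2 by 0.44 ± 0.0831 (SE, adjusted p = 0.000236) and Col18a1 by 0.41 ± 0.0773 (SE, adjusted p = 0.000202). For Col8a1, Col4a2, Col5a1 and Col6a1 the 2 lines had called changes of opposite sign. The MC38 call of Col6a1 was lost in 7 of 17 alternative settings, among them 1 fit of all 18 libraries.

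LLC and MC38, which also differ in time, had different responses for 7 of 10 chains, against 31.0% of genes. The LLC response was higher for Col6a2 by 1.38 ± 0.179 (SE, adjusted p = 6.9e-06), for Col3a1 by 1.17 ± 0.0515 (SE, adjusted p = 1.23e-11), for Col6a1 by 1.01 ± 0.0843 (SE, adjusted p = 1.71e-08) and for Col5a2 by 0.49 ± 0.0572 (SE, adjusted p = 2.82e-06). It was lower for Col4a2, at -0.98 ± 0.084 (SE, adjusted p = 3.94e-08), and for Col4a1, at -0.66 ± 0.056 (SE, adjusted p = 1.33e-08). All 6 of these chains had called changes of opposite sign in the 2 lines. Of 17 alternative settings, the MC38 call was lost in 7 for Col6a1, in 2 for Col5a2 and in 1 for Col4a1.

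LLC and 4T1 had different responses for 5 of 8 chains, against 58.8% of genes. Col4a1 was lower in LLC by -0.46 ± 0.056 (SE, adjusted p = 5.05e-07) and Col4a2 by -0.53 ± 0.0832 (SE, adjusted p = 2.23e-05), while Col16a1 was higher by 0.31 ± 0.0648 (SE, adjusted p = 0.000413). Col6a1 was not among them, with a difference of -0.16 ± 0.0878 (SE, adjusted p = 0.169), and it was called without the first 4T1 control library, at -0.24 (adjusted p = 0.0204). The difference for Col18a1, 0.70 ± 0.192 (SE, adjusted p = 0.00523), was lost without the third LLC sildenafil library, at 0.47 (adjusted p = 0.0881). The 3 comparisons of responses share libraries, so they are not independent.

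The other genes of the collagen pathway were taken as 7 lists and counted among the genes that passed the filter on low counts. Of all genes that passed it, 66.7% were called in 4T1 (33.5% up, 33.3% down), 37.8% in MC38 (19.5% up, 18.3% down) and 27.3% in LLC (15.1% up, 12.2% down), with median log2 fold changes of 0.0023, 0.0040 and -0.0062.

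The enzymes that modify collagen chains rose for the most part in MC38. Of the 15 genes for hydroxylation and glycosylation, 8 rose and 1 fell among 12 tested in MC38, 6 rose and 3 fell among 14 in 4T1, and 5 rose and 4 fell among 14 in LLC. The shares called were 75.0% in MC38 and 64.3% in both 4T1 and LLC, against 37.8%, 66.7% and 27.3% of all genes, and the list's median log2 fold changes were 0.24, 0.04 and 0.09 in MC38, 4T1 and LLC. In MC38, P4ha1, the catalytic subunit of prolyl 4-hydroxylase, went from 122 ± 3.17 to 169 ± 2.25 CPM (log2 fold change 0.47, adjusted p = 1.51e-08), and P4hb, its partner subunit, from 1228 ± 7.10 to 1485 ± 38.0 CPM (log2 fold change 0.27, adjusted p = 2.29e-06). P4ha2 went from 36.8 ± 0.241 to 49.7 ± 1.14 CPM (log2 fold change 0.43, adjusted p = 7.82e-07) and the prolyl 3-hydroxylase P3h1 from 48.6 ± 2.01 to 62.1 ± 1.73 CPM (log2 fold change 0.35, adjusted p = 7.35e-06). In LLC, P4ha2 fell from 11.8 ± 0.766 to 8.70 ± 0.829 CPM (log2 fold change -0.43, adjusted p = 0.00887) and the lysyl hydroxylase Plod2 from 84.3 ± 7.75 to 67.1 ± 3.69 CPM (log2 fold change -0.33, adjusted p = 0.00879), while Plod1 rose from 12.6 ± 0.773 to 16.6 ± 0.63 CPM (log2 fold change 0.40, adjusted p = 0.0038) and Crtap, a partner of P3h1, from 45.1 ± 1.03 to 54.9 ± 2.46 CPM (log2 fold change 0.28, adjusted p = 0.0036). In 4T1, Plod1 rose from 35.6 ± 3.34 to 52.2 ± 0.404 CPM (log2 fold change 0.55, adjusted p = 1.26e-06) and P3h1 from 22.5 ± 0.996 to 28.2 ± 1.36 CPM (log2 fold change 0.32, adjusted p = 7.95e-05). There the galactosyltransferase Colgalt1 fell from 269 ± 4.15 to 212 ± 4.46 CPM (log2 fold change -0.35, adjusted p = 1.5e-07) and Crtap from 118 ± 4.40 to 101 ± 1.73 CPM (log2 fold change -0.23, adjusted p = 5.44e-05).

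Of 13 genes of collagen folding and export, 5 rose and 6 fell of 11 tested in 4T1, 5 rose and none fell of 12 in MC38, and 2 rose and 1 fell of 12 in LLC. These are 100%, 41.7% and 25.0%, near the share of all genes in MC38 and LLC (37.8% and 27.3%) and above the 66.7% of 4T1, with list medians of -0.20, 0.05 and 0.04. Fkbp14, a prolyl isomerase of the endoplasmic reticulum, rose in 4T1 from 3.10 ± 0.256 to 7.96 ± 0.535 CPM (log2 fold change 1.35, adjusted p = 2.9e-08) and in MC38 from 9.16 ± 0.542 to 15.6 ± 0.954 CPM (log2 fold change 0.77, adjusted p = 9.68e-07). Sec23a, a subunit of the vesicle coat that exports collagen, rose in 4T1 from 66.9 ± 1.38 to 89.1 ± 1.04 CPM (log2 fold change 0.41, adjusted p = 1.15e-07) and in MC38 from 81.5 ± 2.27 to 103 ± 2.23 CPM (log2 fold change 0.34, adjusted p = 1.31e-06). Mia3, the receptor that loads collagen into vesicles, rose in MC38 (log2 fold change 0.20, adjusted p = 0.000266), as did Sec24d (0.15, adjusted p = 0.00107). In 4T1, Mia2 fell (log2 fold change -0.34, adjusted p = 5.85e-07), as did the isomerase Ppib (-0.25, adjusted p = 1.05e-05). In LLC, Fkbp10 rose (log2 fold change 0.24, adjusted p = 0.00367), as did Ppib (0.27, adjusted p = 0.0146), and Sec24d fell (-0.13, adjusted p = 0.0468). Leaving out single LLC libraries ended the Ppib call for 3 of them (control 1, sildenafil 2 and sildenafil 3, adjusted p 0.0596 to 0.0734) and the Sec24d call for 5 of them (all but control 3, adjusted p 0.0689 to 0.198).

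Among 14 genes of procollagen processing and crosslinking, 3 rose and 2 fell of 9 tested in 4T1, 2 rose and 4 fell of 8 in MC38, and 3 rose and 1 fell of 7 in LLC. The shares called were 55.6%, 75.0% and 57.1%, against 66.7%, 37.8% and 27.3% of all genes, and the list medians were -0.0033, -0.20 and 0.04. Pcolce, which enhances the trimming of fibrillar procollagens, rose in LLC from 345 ± 8.01 to 461 ± 14.7 CPM (log2 fold change 0.42, adjusted p = 0.000291) and fell in MC38 from 166 ± 2.74 to 147 ± 8.28 CPM (log2 fold change -0.17, adjusted p = 0.00204) and in 4T1 from 105 ± 1.14 to 92.9 ± 1.46 CPM (log2 fold change -0.18, adjusted p = 0.000136). The procollagen protease Adamts14 fell in LLC from 37.0 ± 2.29 to 20.3 ± 2.13 CPM (log2 fold change -0.86, adjusted p = 9.65e-05). The crosslinking oxidase Loxl3 rose in all 3 lines, with log2 fold changes of 0.71 in 4T1, 0.29 in MC38 and 0.29 in LLC. The transglutaminase Tgm2 rose in 4T1 (log2 fold change 0.61, adjusted p = 6.78e-10), where Pcolce2 fell (-0.50, adjusted p = 4.27e-07). In MC38, Loxl4 fell (log2 fold change -0.28, adjusted p = 9.41e-06) and Bmp1, the protease that trims procollagen ends, rose (0.22, adjusted p = 0.000298). Pcolce2 rose in LLC (log2 fold change 0.22, adjusted p = 0.02), a call lost without control 1, sildenafil 2 or sildenafil 3 (adjusted p 0.0783 to 0.0956).

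Of 9 proteins that bind collagen fibrils, 2 rose and 1 fell of 4 tested in 4T1, none rose and 2 fell of 5 in MC38, and 1 rose and none fell of 3 in LLC. With so few genes, 75.0%, 40.0% and 33.3% called lie near the 66.7%, 37.8% and 27.3% of all genes, and the list medians were 0.18, -0.29 and 0.04. Thbs1, an adhesive matrix protein, rose in 4T1 from 113 ± 1.22 to 139 ± 4.57 CPM (log2 fold change 0.30, adjusted p = 2.36e-06) and fell in MC38 from 902 ± 34.4 to 725 ± 14.8 CPM (log2 fold change -0.31, adjusted p = 1.8e-06). The proteoglycan Bgn fell in MC38 (log2 fold change -0.29, adjusted p = 0.000213), Tnxb rose in 4T1 (0.66, adjusted p = 0.000977) and Thbs2 rose in LLC (0.54, adjusted p = 0.000329). Postn fell in 4T1 (log2 fold change -0.41, adjusted p = 0.0273), a call lost without control 2, sildenafil 1 or sildenafil 3 (adjusted p 0.0552 to 0.158).

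Of 12 collagen receptors, 4 rose and 3 fell of 9 tested in 4T1, 2 rose and 1 fell of 8 in MC38, and 1 rose and 1 fell of 7 in LLC. With so few genes, the shares called, 77.8%, 37.5% and 28.6%, lay near the 66.7%, 37.8% and 27.3% of all genes. The list medians were 0.41, 0.11 and -0.13. Ddr1, a receptor tyrosine kinase, rose in all 3 lines, from 46.3 ± 0.887 to 61.4 ± 3.10 CPM (log2 fold change 0.41, adjusted p = 1.08e-06) in 4T1, from 19.1 ± 0.407 to 21.9 ± 1.43 CPM (log2 fold change 0.20, adjusted p = 0.0131) in MC38 and from 10.1 ± 0.503 to 17.6 ± 0.232 CPM (log2 fold change 0.80, adjusted p = 6.24e-05) in LLC. The MC38 call was lost without control 1 (adjusted p = 0.0548) or sildenafil 2 (adjusted p = 0.0695). In 4T1 the integrin subunit Itga1 rose from 5.66 ± 0.368 to 14.9 ± 1.80 CPM (log2 fold change 1.39, adjusted p = 1.97e-08) and Ddr2 fell (-0.25, adjusted p = 2.32e-06). Itga10 rose there from a low level, 0.672 ± 0.167 to 2.40 ± 0.73 CPM (log2 fold change 1.83, adjusted p = 3.85e-05). Itga10 in MC38 (log2 fold change 0.15, adjusted p = 0.0243), Adgrg1 in MC38 (-0.56, adjusted p = 0.0368) and Cspg4 in LLC (-1.20, adjusted p = 0.0132) were called. Cspg4 lay below 1 CPM in both LLC groups, at means of 0.898 and 0.388, and Adgrg1 at 1.85 and 1.26 CPM in MC38. Each of the 3 calls was lost on leaving out some single libraries. These were control 1, control 2 or sildenafil 3 for Itga10, control 2, control 3, sildenafil 1 or sildenafil 3 for Adgrg1, and control 2 or sildenafil 3 for Cspg4 (adjusted p 0.0555 to 0.161).

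Of 17 genes of collagen degradation and its inhibitors, 7 rose and 2 fell of 11 tested in 4T1, 2 rose and 2 fell of 9 in MC38, and 5 rose and none fell of 8 in LLC. The shares called were 81.8%, 44.4% and 62.5%, against 66.7%, 37.8% and 27.3% of all genes, with list medians of 0.24, 0.01 and 0.21. Mmp14, a membrane-bound collagenase, rose in all 3 lines, from 162 ± 2.11 to 239.5 ± 7.17 CPM (log2 fold change 0.56, adjusted p = 2.51e-09) in 4T1, from 201 ± 2.98 to 220.1 ± 8.57 CPM (log2 fold change 0.13, adjusted p = 0.00471) in MC38 and from 100.1 ± 1.06 to 152 ± 5.84 CPM (log2 fold change 0.60, adjusted p = 2.4e-05) in LLC. The lysosomal protease Ctsb also rose in all 3, with log2 fold changes of 0.73, 0.26 and 0.22 in 4T1, MC38 and LLC. Mmp3 rose in 4T1 (log2 fold change 0.42, adjusted p = 1.35e-07) and, from a mean of 0.475 CPM, in LLC (2.19, adjusted p = 0.000205). The inhibitor Timp2 rose in 4T1 (log2 fold change 0.24, adjusted p = 5.71e-06) and LLC (0.30, adjusted p = 0.015) and fell in MC38 (-0.22, adjusted p = 3.61e-05), where Timp1 also fell (-0.12, adjusted p = 0.0116). The Timp2 call in LLC was lost without sildenafil 1 or 3 (adjusted p 0.0531 and 0.0698), and the Timp1 call without MC38 sildenafil 3 (adjusted p = 0.0524).

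Most basement membrane partners of collagen IV that were tested fell in LLC, as Col4a1 and Col4a2 did there. Of 14 such genes, 1 rose and 6 fell of 9 tested in LLC, 1 rose and 4 fell of 12 in MC38, and 6 rose and 4 fell of 11 in 4T1. The shares called were 77.8%, 41.7% and 90.9% in LLC, MC38 and 4T1, against 27.3%, 37.8% and 66.7% of all genes, with list medians of -0.50, -0.13 and 0.17. In LLC the laminin chains Lama3, Lamb1 and Lamc1 fell, from 34.9 ± 3.82 to 22.5 ± 1.18 CPM (log2 fold change -0.63, adjusted p = 0.000651), from 282 ± 21.1 to 214 ± 9.85 CPM (log2 fold change -0.40, adjusted p = 0.00162) and from 529 ± 60.4 to 369.7 ± 18.7 CPM (log2 fold change -0.52, adjusted p = 0.00241), while Lamb2 rose from 67.4 ± 1.31 to 84.3 ± 2.15 CPM (log2 fold change 0.32, adjusted p = 0.000879). In MC38, where Col4a1 and Col4a2 rose, the linker protein Nid1 fell from 192 ± 16.3 to 132 ± 2.51 CPM (log2 fold change -0.54, adjusted p = 0.000111), Lamc1 fell (log2 fold change -0.24, adjusted p = 0.00449) and Lama5 fell (-0.31, adjusted p = 0.00615). Lamb2 rose in MC38 (log2 fold change 0.13, adjusted p = 0.0107), a call lost without control 1 (adjusted p = 0.0569). In 4T1 the proteoglycan Agrn rose from 273 ± 9.53 to 398 ± 4.55 CPM (log2 fold change 0.54, adjusted p = 4.19e-09) and Pxdn, the peroxidase that crosslinks collagen IV, from 108 ± 0.48 to 141 ± 3.01 CPM (log2 fold change 0.37, adjusted p = 1.1e-07). Lamb1 (log2 fold change -0.40, adjusted p = 3.15e-08) and the proteoglycan Hspg2 (-0.38, adjusted p = 1.37e-07) fell in 4T1.

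Fibroblasts make most fibrillar collagen in tissues, so markers of that and other cell types were measured beside the collagens. Summed over 9 fibroblast markers, control libraries ranged from 31.0 to 32.9 CPM and sildenafil libraries from 55.4 to 63.8 in 4T1, from 57.5 to 60.1 and from 63.0 to 65.2 in MC38, and from 68.4 to 77.9 and from 146 to 157 in LLC. Among tested fibroblast markers, 2 of 3 rose and 1 fell in 4T1, 2 of 3 rose in MC38 and 2 of 2 in LLC. Of all genes that passed the filter on low counts, 33.5%, 19.5% and 15.1% rose in these lines. At 1 CPM or more, those that rose were the PDGF receptors. Postn fell in 4T1 (log2 fold change -0.41, adjusted p = 0.0273), a call lost on leaving out some single libraries. Pdgfra rose from 60.9 ± 3.43 to 128 ± 4.60 CPM (log2 fold change 1.07, adjusted p = 3.29e-06) in LLC, from 28.8 ± 1.47 to 55.7 ± 4.86 CPM (log2 fold change 0.95, adjusted p = 3.71e-08) in 4T1 and from 15.6 ± 1.19 to 19.0 ± 0.361 CPM (log2 fold change 0.29, adjusted p = 0.00146) in MC38, and Pdgfrb rose in LLC (log2 fold change 0.83, adjusted p = 0.000449) and MC38 (0.35, adjusted p = 0.000303). The other fibroblast markers at 1 CPM or more were Dcn in MC38, at 29.4 ± 1.10 CPM in control cells, and Postn in 4T1, and the part of any such cells in the collagen values was not tested. Of 6 endothelial markers, only Pecam1 reached 1 CPM, in MC38 with sildenafil at 1.62 ± 0.137. Of 9 leukocyte markers 2 reached 1 CPM in each line, and of 6 smooth muscle markers only Mcam did. Summed leukocyte markers ranged from 36.1 to 37.6 CPM in control and from 84.0 to 92.3 in sildenafil libraries of 4T1. They ranged from 5.64 to 6.21 and from 9.40 to 10.1 in MC38, and from 2.66 to 3.24 and from 4.72 to 5.67 in LLC. These sums rest on few genes. Among tested leukocyte markers, 2 of 2 rose in 4T1, 2 of 3 in MC38 and 1 of 2 in LLC, beside 33.5%, 19.5% and 15.1% of all genes. Epithelial sums fell without overlap in all 3 lines, in 4T1 from between 2928 and 3036 to between 2365 and 2446 CPM. The markers did not all fall, since 3 rose and 5 fell of 9 tested in 4T1. In MC38, 3 of 6 fell and none rose, and the LLC fall rests on the 1 marker tested there. Of all genes that passed the filter, 33.3%, 18.3% and 12.2% fell in 4T1, MC38 and LLC. Smooth muscle sums were higher in 4T1, lower in MC38 and overlapped in LLC.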

How the data were processed

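Poly(A) RNA from 18 libraries (3 per group, 6 groups) was sequenced as stranded paired ends, per the labels' protocols. The authors deposited expected counts per gene, estimated by RSEM, in 1 table. The submitters' processing notes name bcl2fastq 2.17, cutadapt 1.18, STAR 2.7.0f, RSEM 1.3.1 and mm10. They do not give the order of steps, and neither the annotation release nor the strand setting is given in the sources used here. All 55450 gene identifiers and symbols matched GENCODE M21 (GRCm38, the same assembly as mm10), which gave exon lengths and positions.

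The expected counts were rounded and tested with edgeR 4.0.16 in R 4.3.3 (filterByExpr, TMM, robust quasi-likelihood F test), within each line (4 residual degrees of freedom) for sildenafil against control. Differences between lines used 1 fit of all 18 libraries with a coefficient per group (12 residual degrees of freedom). P-values were adjusted by Benjamini-Hochberg over all genes tested, with a threshold of 0.05. Standard errors are the log2 fold change divided by the square root of F. Totals of 26348654 to 61600646 counts per library set the precision. TPM were computed from the expected counts and union exon lengths. Partner ratios were compared by exact permutation of 3 against 3 libraries.

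Named genes followed a rule: up to 8 called chains per line with the largest changes, 11 chains whatever their values, the 5 highest chains per control group, and up to 4 genes per pathway list and line with the smallest adjusted p. The members and lists were chosen with earlier results of these data known. Alternatives covered DESeq2 1.42.0, limma-voom 3.58.1, RLE and total-count scaling, filters, level floors, unrounded counts, protein-coding genes only, Gm26917 as a covariate, the replicate block and leaving out each library. For the response within a line they also covered 1 fit of all 18 libraries. The fits were tested on simulated data. Start windows came from RefSeq, with 35 of 44 collagen symbols matched. Figures were drawn with matplotlib.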

Additional observations from a re-analysis of the deposited data

Results flagged for a closer look

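Differences in the response to sildenafil between lines, tested as differences of log2 fold changes over all 18 libraries with edgeR, passed an adjusted p of 0.05 for 21 pairs of a chain and a comparison, and each is listed for that reason. A positive value means that the response of the line named first was higher. MC38 minus 4T1 gave 0.85 for Col8a1, 0.44 for Col4a2, 0.41 for Col18a1, 0.22 for Col16a1 and 0.19 for Col4a1. The same comparison gave -1.17 for Col6a1, -0.80 for Col4a5, -0.73 for Col5a3 and -0.65 for Col5a1. The Col16a1 value (adjusted p = 0.0492) was lost in 17 alternative settings. The Col5a3 value (adjusted p = 0.0239) was lost without 4T1 control 1 (-0.61, adjusted p = 0.0965) or 4T1 control 3 (-0.74, adjusted p = 0.0504).

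LLC minus MC38 gave 1.38 for Col6a2, 1.17 for Col3a1, 1.01 for Col6a1 and 0.49 for Col5a2. It gave -0.98 for Col4a2, -0.66 for Col4a1 and -0.45 for Col5a3. LLC minus 4T1 gave 0.70 for Col18a1 and 0.31 for Col16a1, and -1.18 for Col5a3, -0.53 for Col4a2 and -0.46 for Col4a1. LLC was treated for 48 h and the other lines for 24 h, so line and time cannot be told apart in these values.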

How the results depend on the processing

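For the chains within a line, 724 of 753 values counted as kept under the alternative settings, 22 lost the call, 6 gained it and 1 reversed. A called value was kept if it stayed called in the same direction. A value called in neither fit was counted as kept whatever its direction, as for Col27a1 in 4T1, which ran from -2.67 to 0.34. For differences in response 585 of 608 were kept, for controls 1175 of 1187 and for the pathway genes named 1163 of 1252. With Gm26917 as a covariate, the chains that rose numbered 0 in 4T1 and 2 in MC38, and those that fell numbered 2 in MC38. In that fit Col5a1 in 4T1 stood at -0.033 (adjusted p = 0.939), P3h1 in 4T1 at -0.040, Postn in 4T1 at 1.14, Ddr1 in 4T1 at -0.056, Adgrg1 in MC38 at 0.26 and Lama5 in MC38 at 0.027, each with the sign turned. The covariate and treatment share most of their variance in 4T1 and MC38, and the cause was not tested. The chains that rose in LLC numbered 3 with a floor of 5 CPM and 3 with a filter of 5 CPM in 3 libraries, since Col24a1 and Col6a2 lie below 5 CPM. Col4a1 in LLC against 4T1 controls, not called and near 0, went to 0.081 under DESeq2 and 0.14 under the stricter filter. Leaving out each library in turn gave 4 to 4 rises and 4 to 5 falls in 4T1, 4 to 4 and 5 to 7 in MC38, and 5 to 5 and 2 to 2 in LLC. It gave 7 to 9, 7 to 7 and 4 to 6 chains with different responses for MC38 minus 4T1, LLC minus MC38 and LLC minus 4T1, and 20 to 20, 21 to 22 and 14 to 14 for MC38 against 4T1, LLC against MC38 and LLC against 4T1 controls.

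The replicate numbers were also tried as a block. With the replicate block, 4 chains rose and 4 fell in 4T1, 4 rose and 7 fell in MC38, and 5 rose and 2 fell in LLC, as without it. Among the pathway genes named, the block ended the call of Sec24d in LLC (-0.13, adjusted p = 0.0541) and no other. Same-numbered libraries had correlations of their deviations from the group means of 0.00537, 0.0835 and -0.0724 in 4T1, 0.0759, 0.0505 and 0.256 in MC38, and 0.229, -0.104 and 0.139 in LLC. Differently numbered libraries gave -0.264 to 0.146 over the 3 lines. The labels do not say what the numbers mark, and with 3 libraries per group these values cannot settle whether the numbers pair the samples. Chains of a few CPM, such as Col24a1 in LLC and Col6a3 in MC38, rest on few counts, and small differences in them were not detectable at this depth.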
